A study of Mus musculus with 5 samples.

Results

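The Runx family and its shared subunit were examined in Lin-cKIT+Sca-1- (KL) cells, the sorted bone marrow fraction that holds committed myeloid progenitors. The 5 members were Runx1, Runx2, Runx3, Cbfb and Runx1t1, taken by gene identifier from a table of 52550 genes. Of these, 4 were among the 11766 genes with enough counts to be tested, and Runx1t1 was not. RNA was counted at transcript 3′ ends 20 weeks after tamoxifen. The question was how loss of Bcor function changes gene expression in these cells. Per the labels, both groups were scl-Cre-ERT + and both received 1 mg of tamoxifen on each of 5 days, at an age of 3 to 6 months. The BcorΔE9-10 group (Bcorfl/y, n = 3 libraries) loses exons 9 and 10 of Bcor when Cre is active, which leaves a truncated protein, and the BcorWT group (Bcorwt/y, n = 2 libraries) keeps the intact gene. The Cre is driven by stem cell elements of the Tal1 (Scl) gene, so deletion starts in haematopoietic stem cells and is inherited by the progenitors that were sorted. The mice used for sorting were male. The labels do not say whether each library came from a separate mouse, so p-values measure the spread between these libraries, which may be technical.

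Runx proteins are transcription factors that bind DNA through a shared Runt domain. Cbfb does not bind DNA itself but pairs with each Runx protein and strengthens its binding. In blood, Runx1 is required for stem cells to emerge and for megakaryocyte and lymphoid maturation, Runx3 acts in T and natural killer cells and in the myeloid lineage, and Runx2, best known as the regulator of bone formation, is also active in plasmacytoid dendritic cells. Runx1t1 (ETO, MTG8) is a corepressor that is fused to RUNX1 in a frequent form of acute myeloid leukaemia, and CBFB is broken by an inversion in another. Several Runx genes are read from a distal and a proximal promoter, which give proteins with different first residues.

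The promoters are shown first because the 3 Runx genes share a sequence there that is itself the word Runx proteins bind. Promoter sequences from RefSeq (GRCm38.p6, 250 bases before to 50 bases after each annotated start) were found for Runx1, Runx2, Runx3 and Cbfb, with a distal and a proximal entry for Runx1 and Runx3. The core word TGTGGT was searched on both strands, and on the opposite strand it reads ACCACA. The distal promoters of Runx1 and Runx3 and the only Runx2 promoter in the table each held 2 copies of ACCACA with 2 bases between them. The 30-base windows that hold this pair are given on the strand of the gene, with the 2 copies in capitals. They lie at chr16:92826025-92826054 on the minus strand for Runx1, chr17:44814583-44814612 on the minus strand for Runx2 and chr4:135120503-135120532 on the plus strand for Runx3.
Runx1: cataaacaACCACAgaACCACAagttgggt
Runx2: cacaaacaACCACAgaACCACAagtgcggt
Runx3: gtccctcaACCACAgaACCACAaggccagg

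The longest run of bases common to the 3 windows was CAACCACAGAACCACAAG, 18 bases long, and Runx1 and Runx2 shared 22 bases (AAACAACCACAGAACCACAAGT). Over all 32851 promoters of the table (27025 genes), 16.8% held at least 1 TGTGGT, 1.81% at least 2 and 0.183% at least 3. The pair with 2 bases between the copies occurred in 7 promoters, 0.0213% of them. These were Runx1, Runx2, Runx3, Gm12236, Gm15462, Gm16225 and Olfr24, and none of the last 4 was among the genes tested. The full run of 18 bases was also present in Gm16225, and so in 4 promoters of the table. The position of the pair differed between the genes. It lay 29 to 42 bases after the RefSeq start in Runx1 and 24 to 37 bases after it in Runx2. The gene models used for counting reach further upstream than these starts. They end at 92826149 against a RefSeq start of 92826074 for Runx1, and at 44814797 against 44814627 for Runx2. Distances from the start thus depend on the annotation. In Runx3 the pair lay from -134 to -121, before the RefSeq start.

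Runx2 was the only member with further matches. The 250 bases before its RefSeq start (chr17:44814628-44814877, minus strand) held 1 further copy at -80 to -75. This copy lies within the longer gene model used for counting and is shown in capitals.
Runx2: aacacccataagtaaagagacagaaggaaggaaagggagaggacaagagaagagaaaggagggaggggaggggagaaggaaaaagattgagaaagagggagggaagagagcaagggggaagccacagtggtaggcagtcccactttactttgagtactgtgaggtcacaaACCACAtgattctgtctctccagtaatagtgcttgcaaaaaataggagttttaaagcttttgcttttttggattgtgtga
A copy of the variant word TGCGGT, which 6.45% of all promoters held, followed the pair at bases 40 to 45. The 250 bases before the distal Runx3 start (chr4:135120395-135120644, plus strand) are given for comparison, with the pair in capitals.
Runx3: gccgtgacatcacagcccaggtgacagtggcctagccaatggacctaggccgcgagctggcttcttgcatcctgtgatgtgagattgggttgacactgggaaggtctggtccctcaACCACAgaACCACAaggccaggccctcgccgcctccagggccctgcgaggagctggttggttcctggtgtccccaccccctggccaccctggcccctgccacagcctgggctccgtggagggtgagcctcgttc

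The proximal promoters of Runx1 and Runx3 and the Cbfb promoter held neither word in these windows. They also differed in composition. The proximal Runx1 and Runx3 promoters and the Cbfb promoter held 35, 45 and 30 CpG dinucleotides in 300 bases, against 2, 2 and 8 in the Runx1 distal, Runx2 and Runx3 distal promoters. The median of all promoters was 7, and the 10th and 90th percentiles were 1 and 31. A match is a description of the letters and was not tested as a binding site. Reads at the 3′ end do not tell transcripts of the distal promoter from those of the proximal one.

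**Figure D1:**
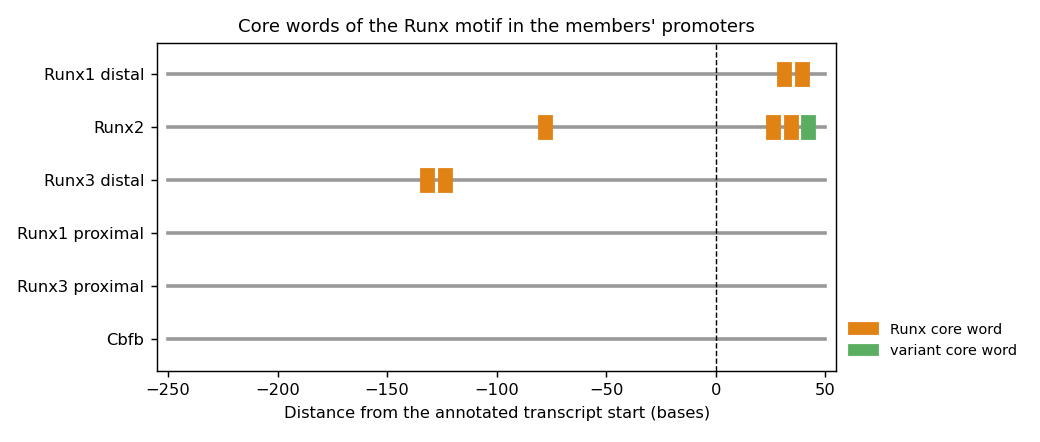
Matches to the Runx core word (orange) and its variant (green) in 6 promoters of the members, by distance from the RefSeq transcript start in bases (dashed line). The Runx1 distal, Runx2 and Runx3 distal promoters carry a close pair of core words, Runx2 carries 1 further copy upstream, and the other 3 promoters carry none.

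The libraries held between 5998924 and 8303999 counts. Of the genes tested, 1189 were called between the groups (limma, adjusted p under 0.05), 708 higher and 481 lower in BcorΔE9-10. These are 10.1%, 6.02% and 4.09% of the genes tested, the background for the counts of members. Levels are counts per 1e+06 (CPM) on TMM-scaled library totals, and a log2 fold change above 0 means a higher level in BcorΔE9-10. The median log2 fold change over all genes tested was 0.0043, and scaling by total counts alone moved it to 0.15. Bcor itself had 196, 168 and 185 counts in BcorΔE9-10 against 83 and 109 in BcorWT. The removed exons are not read at the 3′ end, so these counts do not check the labels.

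Runx2 and Runx3 were higher in BcorΔE9-10 KL cells, by 2.06 and 1.35 times, while the differences of Runx1 and Cbfb did not pass the threshold. All 4 had a positive log2 fold change, with a median of 0.34, although that of Cbfb turned under other settings. Of the 4 tested, 2 were called higher, beside 6.02% of all genes. In 3 of the 4 (Runx1, Runx2 and Runx3) every BcorΔE9-10 library lay above every BcorWT library, which was also the case for 22.6% of all genes tested. The call of Runx2 did not hold after correction for GC content or without either BcorWT library, and that of Runx3 was lost under 12 of 16 alternative settings. In bulk RNA, a change in the number of cells that carry a transcript and a change in the amount per cell cannot be told apart.

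Runx2 (ENSMUSG00000039153, mm10 chr17:44495987-44814797, minus strand) had the largest change and the lowest level of the 4. Its counts were 118, 85 and 110 in BcorΔE9-10 against 48 and 42 in BcorWT, which correspond to 13.9, 13.9 and 12.9 CPM against 6.82 and 6.22 CPM. All 3 BcorΔE9-10 libraries thus stood clear of both controls, and neither group spread widely. The average was 13.6 ± 0.609 CPM in BcorΔE9-10 (SD, n = 3) and 6.52 ± 0.419 CPM in BcorWT (SD, n = 2), a difference of 1.04 on the log2 scale (limma, SE 0.267, adjusted p = 0.0202). The difference exceeded that between the 2 control libraries, which was -0.13 on the log2 scale. Among all genes tested, its fold change lay at percentile 92.8 and its level at percentile 40.5.

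The 3′ end of Runx2 was rich in A and T, and genes of this kind tended to have positive fold changes in these libraries. The last 300 bases of its longest transcript held 31.3% GC. The 1289 genes tested within 2.5 percentage points of this value had a median log2 fold change of 0.21, and 11.3% of them were called higher. After a GC trend was removed from each library, the log2 fold change of Runx2 was 0.80 (limma adjusted p = 0.0714). Without BcorWT library 1 it was 1.10 (limma adjusted p = 0.0911) and without BcorWT library 2 it was 0.98 (limma adjusted p = 0.0805), fits in which the remaining control is assumed to vary like the other group. Runx2 also overlaps an antisense gene, Runx2os1, by 519 exon bases on the other strand. That gene had 15, 9 and 22 counts in BcorΔE9-10 against 21 and 14 in BcorWT, and the strand setting of the counting is not given in the sources used here.

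Runx3 (ENSMUSG00000070691, chr4:135120652-135177990, plus strand) was the most abundant of the 3 Runx transcripts. Its counts were 653, 451 and 625 in BcorΔE9-10 against 392 and 370 in BcorWT, or 77.2, 73.6 and 73.0 CPM against 55.7 and 54.8 CPM. The groups did not overlap, and the 2 controls nearly coincided. The average was 74.6 ± 2.25 CPM in BcorΔE9-10 (SD, n = 3) and 55.3 ± 0.596 CPM in BcorWT (SD, n = 2), a difference of 0.43 on the log2 scale (limma, SE 0.132, adjusted p = 0.0461). Its 3′ end held 41.7% GC, where the median log2 fold change of genes of like GC content was 0.0017. The log2 fold change lay between 0.41 and 0.58 over the 16 alternatives, and the adjusted p-value, close to the threshold with all libraries, ranged from 0.0113 to 0.149. Leaving out any 1 of the 5 libraries lost the call, with log2 fold changes of 0.41 to 0.44.

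Runx1 (ENSMUSG00000022952, chr16:92601466-92826149, minus strand), the member most often mutated in myeloid disease, was not called. It had 379, 265 and 369 counts in BcorΔE9-10 against 241 and 266 in BcorWT, or 44.8, 43.2 and 43.1 CPM against 34.2 and 39.4 CPM. The groups did not overlap, but the 2 controls lay further apart than the 3 BcorΔE9-10 libraries. The average was 43.7 ± 0.932 CPM in BcorΔE9-10 (SD, n = 3) and 36.8 ± 3.67 CPM in BcorWT (SD, n = 2), a difference of 0.25 on the log2 scale (limma, SE 0.151, adjusted p = 0.313). The test passed under none of the 16 alternatives, with adjusted p-values of 0.115 to 0.739.

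Cbfb (ENSMUSG00000031885, chr8:105170674-105217989, plus strand), the subunit that all 3 Runx proteins need, was the most abundant member. It had 1049, 834 and 1222 counts in BcorΔE9-10 against 712 and 925 in BcorWT, or 124, 136 and 143 CPM against 101 and 137 CPM. BcorWT library 2 fell within the range of the BcorΔE9-10 libraries, so the groups overlapped. The average was 134 ± 9.54 CPM in BcorΔE9-10 (SD, n = 3) and 119 ± 25.4 CPM in BcorWT (SD, n = 2), a difference of 0.19 on the log2 scale (limma, SE 0.137, adjusted p = 0.415). The controls differed from each other by 0.44 on the log2 scale, more than the groups did. The sign turned after GC correction (-0.0014) and without BcorWT library 1 (-0.038), so no direction is given for Cbfb.

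Runx1t1 (ENSMUSG00000006586, chr4:13743436-13893649, plus strand) had 0 counts in each of the 5 libraries. With 3 counts as the limit that a count of 0 allows, its level could have been up to 0.351 to 0.490 CPM in a single library and 0.0812 CPM over all 5, counting error only. The other members of the ETO family, which carry the same corepressor function, were present at low levels. Cbfa2t3 had 17.5, 15.7 and 19.5 CPM in the BcorΔE9-10 libraries against 13.1 and 13.8 CPM in the BcorWT libraries (log2 fold change 0.39, SE 0.214, limma adjusted p = 0.267). Cbfa2t2 had 7.80, 7.02 and 9.35 CPM against 6.82 and 6.52 CPM (log2 fold change 0.28, SE 0.289, limma adjusted p = 0.592). Every BcorΔE9-10 library lay above every BcorWT library for both genes, as for 22.6% of all genes tested. Neither passed the test (0 of 2 also with edgeR, with DESeq2 and at an unadjusted p under 0.05).

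**Figure D2:**
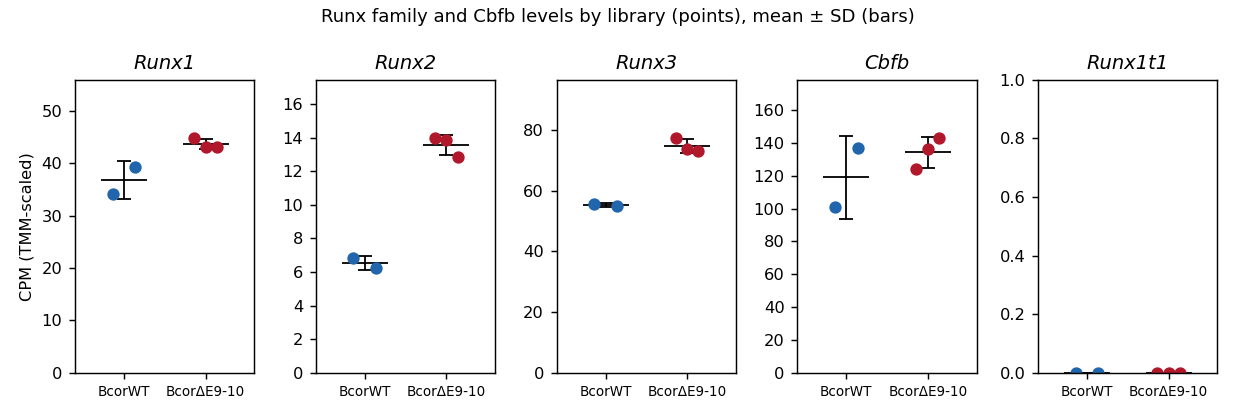
Level of each member in CPM (vertical axes from 0, a scale for each gene) in the 2 BcorWT (blue) and 3 BcorΔE9-10 (red) libraries, with mean and SD in black. The groups are separate for Runx1, Runx2 and Runx3, overlap for Cbfb, and lie at 0 for Runx1t1.

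The order of the levels was the same in both groups. By CPM, Cbfb was highest, then Runx3, Runx1 and Runx2, and no neighbours in this order overlapped within a group. Per kilobase of summed exon length the order was also Cbfb, Runx3, Runx1 and Runx2, with 38.6, 14.9, 3.70 and 1.53 CPM per kilobase in BcorΔE9-10 and 34.2, 11.04, 3.11 and 0.738 CPM per kilobase in BcorWT. A 3′ count does not grow with transcript length, so the values per kilobase spread the long Runx transcripts further from Cbfb than the counts do.

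The make-up of the Runx counts was therefore compared within each library, where scaling between libraries plays no part. The GC trend between libraries is not removed by this. Genes of like 3′ GC content had median log2 fold changes of 0.21 for Runx2, 0.0017 for Runx3 and -0.08 for Runx1. GC correction moved the log2 fold change of Runx2 from 1.04 to 0.80 and that of Runx1 from 0.25 to 0.33. The shares and ratios were not corrected for GC content. Runx2 took 10.3%, 10.6% and 9.96% of the summed Runx1, Runx2 and Runx3 counts in BcorΔE9-10 against 7.05% and 6.20% in BcorWT. Its share was thus higher in every BcorΔE9-10 library, with a mean of 10.3% ± 0.324 (SD, n = 3) against 6.62% ± 0.604 (SD, n = 2). The 95% Wilson intervals of single libraries, which cover counting error only, reached from 8.33% to 12.9% in BcorΔE9-10 and from 4.62% to 9.22% in BcorWT and so overlapped. The share of Runx1 was 33.0%, 33.1% and 33.4% against 35.4% and 39.2%, lower in every BcorΔE9-10 library. The share of Runx3 was 56.8%, 56.3% and 56.6% against 57.6% and 54.6%, with the groups overlapping.

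On the log2 scale, the ratio of Runx2 to Runx1 counts was -1.68, -1.64 and -1.75 in BcorΔE9-10 against -2.33 and -2.66 in BcorWT. The 3 Runx genes together came to 132 ± 3.60 CPM (SD, n = 3) in BcorΔE9-10 and 98.6 ± 2.66 CPM (SD, n = 2) in BcorWT. Set against the partner subunit, there were 1.10, 0.960 and 0.903 Runx counts per Cbfb count in BcorΔE9-10 against 0.957 and 0.733 in BcorWT. These ratios overlapped between the groups. No test was run on the shares and ratios, which are built from the same counts as the fold changes.

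**Figure D3:**
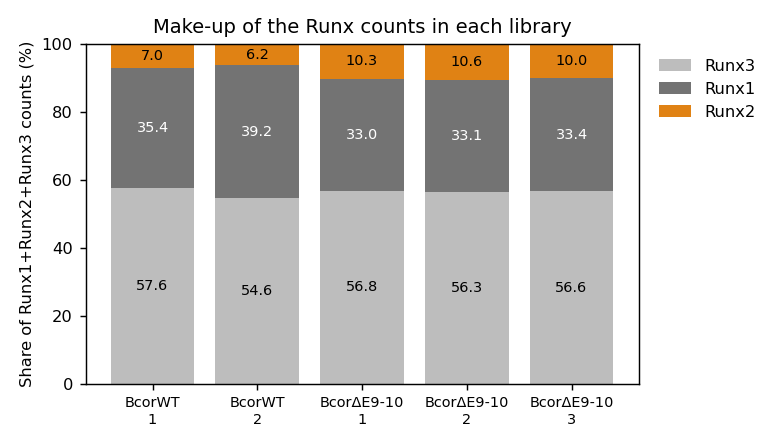
Share of the summed Runx1, Runx2 and Runx3 counts taken by each gene (vertical axis, percent) in the 5 libraries. The Runx2 share is 7.05% and 6.20% in the BcorWT libraries and between 9.96% and 10.6% in the BcorΔE9-10 libraries. The shares are not corrected for GC content.

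The fold changes of the members under each setting are shown together. For Runx2 the log2 fold change stayed between 0.80 and 1.19 over the 16 alternatives, with adjusted p-values from 0.00775 to 0.0911. Under edgeR's quasi-likelihood test and DESeq2 both Runx2 and Runx3 were called.

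**Figure D4:**
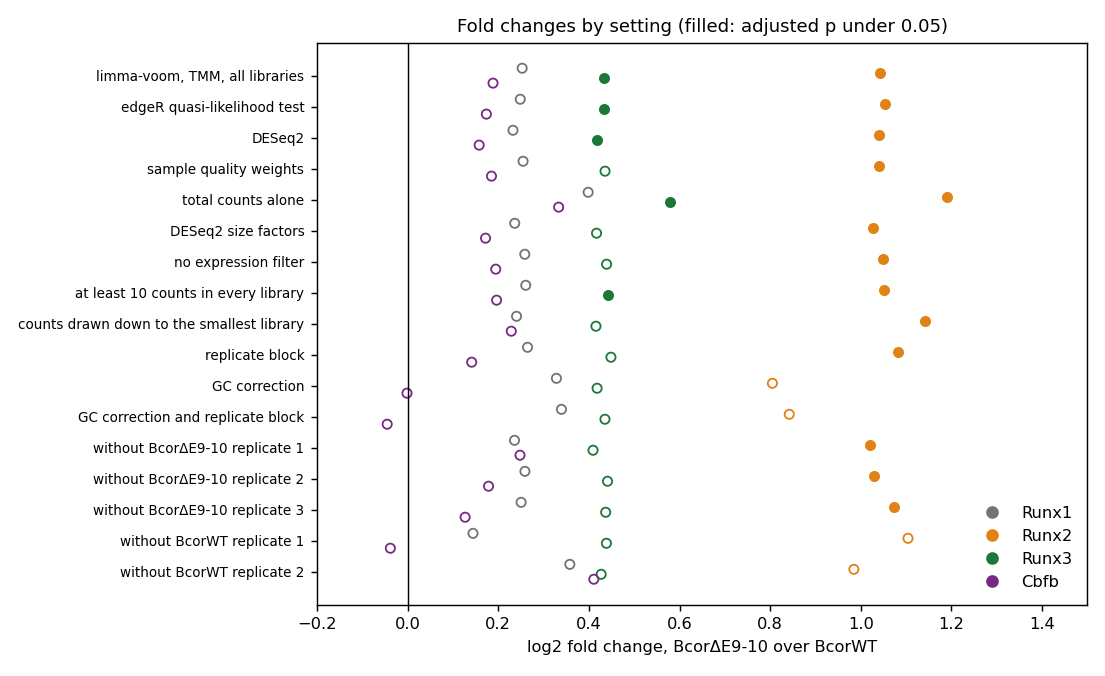
The log2 fold change of BcorΔE9-10 over BcorWT (horizontal axis) for the 4 tested members under each setting (rows), with filled points where the adjusted p-value was under 0.05. Runx2 lies between 0.80 and 1.19 and loses the call in 4 rows, Runx3 lies between 0.41 and 0.58 and loses it in 12 rows, and Runx1 and Cbfb are never called.

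Other genes of the pathway were taken from 7 lists. Their counts are read beside the 10.1% of all genes tested that were called. Of 13 corepressors that Runx proteins recruit, 12 were tested and 0 were called by limma, edgeR or DESeq2, 1 passed an unadjusted p under 0.05, and the median log2 fold change was -0.07. The most abundant were Sin3b, the scaffold of a deacetylase complex (-0.06, limma adjusted p = 0.802), Hdac1, a histone deacetylase (-0.26, limma adjusted p = 0.194), and Ncor1, a nuclear receptor corepressor (-0.08, limma adjusted p = 0.713). The signs of Sin3b and Ncor1 turned when libraries were scaled by total counts alone, and that of Sin3b also after GC correction and without BcorWT library 1.

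Of 17 coactivators and enzymes that modify Runx proteins, 14 were tested and 0 were called by limma or DESeq2, beside the same 10.1%, while 1 was called by edgeR, 3 passed an unadjusted p under 0.05, and the median log2 fold change was 0.03. The most abundant were Cdk6, a cell cycle kinase that binds Runx1 (0.20, limma adjusted p = 0.230), Prmt1, an arginine methyltransferase (-0.30, limma adjusted p = 0.100), and Stub1, a ubiquitin ligase (-0.19, limma adjusted p = 0.428). Limma called 2 when libraries were scaled by total counts alone, Cdk6 and Kmt2a, and 1, Kmt2a, where 10 counts were required in every library. Kmt2a, a histone methyltransferase named after its values were seen, was also the gene called by edgeR.

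Transcription factors that act beside Runx1 on blood cell enhancers held 6 called members. All 14 were tested, of which 5 were called higher and 1 lower, beside 10.1% of all genes called in either direction, and the median log2 fold change was 0.18. The text of the study names Fos, Lmo2, Tal1 and Runx2 from these libraries, and its list of changed transcription factors also holds Gata2 and Hmga2. The list used here was drawn up with that known, so the count is not independent evidence. Fos, a subunit of AP-1, had the largest rise on this list, from 108 and 69.6 CPM in the BcorWT libraries to 334, 333 and 209 CPM in the BcorΔE9-10 libraries (log2 fold change 1.71, SE 0.205, limma adjusted p = 9.78e-05). Tal1, Gata2 and Lmo2, which work in one DNA-binding complex in stem and progenitor cells, had log2 fold changes of 1.48 (limma adjusted p = 0.0202), 1.05 (limma adjusted p = 0.00726) and 0.91 (limma adjusted p = 0.00163). For all 3, which were named because they were called, every BcorΔE9-10 library lay above every BcorWT library, as for 22.6% of all genes tested.

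Myb, a factor that maintains progenitor growth, rose by less, from 239.4 and 220.2 CPM in the BcorWT libraries to 319.7, 298.5 and 299.4 CPM in the BcorΔE9-10 libraries (log2 fold change 0.41, SE 0.106, limma adjusted p = 0.0201). Spi1 (PU.1), the factor of myeloid maturation whose enhancer is bound by Runx1, was the 1 partner called lower, among 6 of 14 with a negative log2 fold change. It had 157, 146 and 168 CPM in the BcorΔE9-10 libraries against 229.6 and 205.8 CPM in the BcorWT libraries (log2 fold change -0.47, SE 0.114, limma adjusted p = 0.0154). The most abundant partners that were not called were Jun (0.18), Fli1 (-0.12) and Lyl1 (-0.18), with limma adjusted p-values of 0.630, 0.559 and 0.371, and neither Jun nor Fli1 kept its sign. That of Fli1 turned under scaling by total counts alone and without BcorWT library 2. Jun ranged from -0.20 to 0.56 over the 16 alternatives, turned without BcorΔE9-10 library 1 and without BcorWT library 2, and was called under the replicate block (0.35, limma adjusted p = 0.0353). The calls of Fos, Gata2 and Lmo2 held under all 16 alternatives. Spi1 lost its call under total counts alone, under GC correction, without BcorΔE9-10 library 1 and without BcorWT library 1, Myb without BcorΔE9-10 library 1 or 3 or BcorWT library 2, and Tal1 without BcorΔE9-10 library 3 or BcorWT library 2, where its log2 fold change was 0.94.

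**Figure D5:**
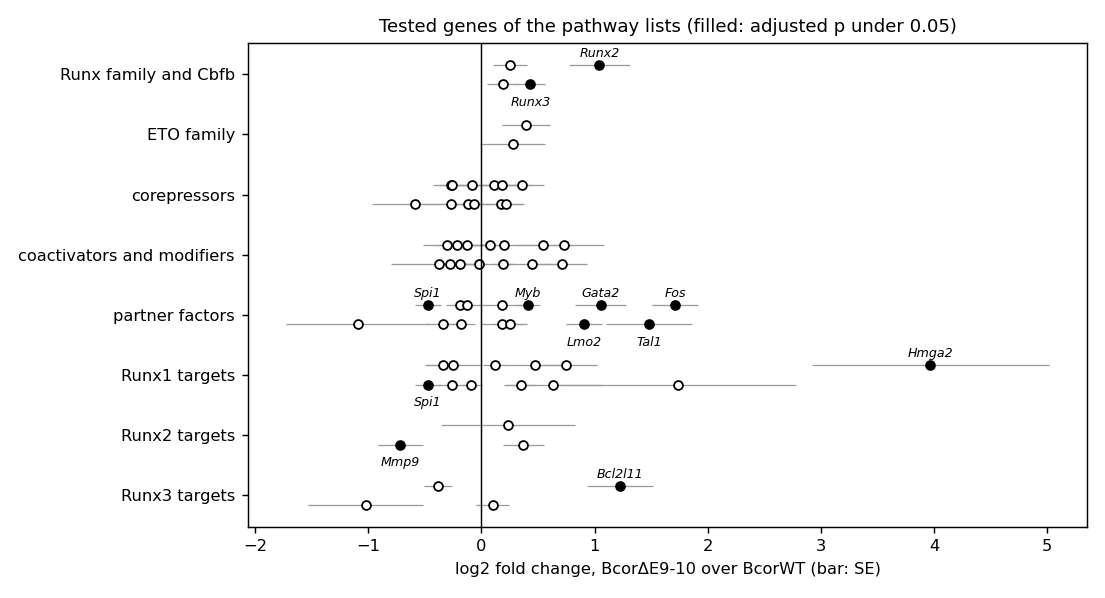
The log2 fold change of BcorΔE9-10 over BcorWT (horizontal axis, bars are SE) for the tested genes of each pathway list (rows), filled and named where the adjusted p-value was under 0.05. Called genes sit mostly among the partner factors, and the corepressors and coactivators hold none.

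Genes described in other studies as targets of single Runx proteins were mostly absent or not called. Of 24 Runx1 targets, 12 were tested, 1 was called higher and 1 lower, or 16.7% beside 10.1% of all genes, and the median log2 fold change was 0.23. At an unadjusted p under 0.05 there were 5, and the count called ran from 1 to 4 over the 16 alternatives. It was 1 without BcorΔE9-10 library 1 or BcorWT library 1. The one called lower was Spi1. Hmga2, a chromatin protein of immature cells, rose from a very low level, with 16, 16 and 13 counts in BcorΔE9-10 against 0 and 1 in BcorWT (limma adjusted p = 0.0240). The ratio of its summed counts, scaled for depth, was 26.8 with an exact 95% counting interval of 4.57 to 1082, and its call was lost without either BcorWT library. It passed the expression filter only through the BcorΔE9-10 libraries and was not tested where 10 counts were required in every library, so its call is a description and no support for the list. The abundant granule genes Mpo (-0.09, limma adjusted p = 0.593) and Elane (0.12, limma adjusted p = 0.527) were not called, and neither kept its sign. That of Mpo turned under total counts alone, after GC correction and without BcorΔE9-10 library 2, and that of Elane without BcorWT library 1. Gfi1, a repressor in granulocyte development, stood at 0.35 on the log2 scale (limma adjusted p = 0.0971). It was called under total counts alone (0.50) and without BcorWT library 2 (0.56) and was lowest without BcorWT library 1 (0.13).

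The bone genes by which Runx2 is best known were mostly at 0. Of 12 Runx2 targets, 8 had 0 counts in every library, among them Bglap (osteocalcin), Sp7 (osterix), Alpl and Ibsp, and 3 were tested. A count of 0 in all 5 libraries allows the same level as given for Runx1t1. Mmp9, a gelatinase that neutrophils also store and that stands on the list of maturing neutrophil genes as well, was called lower, with 631, 528 and 603 CPM in the BcorΔE9-10 libraries against 1400 and 661 CPM in the BcorWT libraries (log2 fold change -0.71, SE 0.201, limma adjusted p = 0.0329). Its call was lost under DESeq2, under total counts alone, without BcorΔE9-10 library 2 or 3 and without BcorWT library 1, the library with the high value. The log2 fold change was -0.18 without BcorWT library 1 and -1.25 without BcorWT library 2. The count of called Runx2 targets ran from 0 to 2 over the alternatives. Vegfa (0.37, limma adjusted p = 0.218) and Spp1 (0.23, limma adjusted p = 0.848) were not called, and no direction is given for either. The sign of Vegfa turned after GC correction (-0.014, and -0.12 with the replicate block) and that of Spp1 after GC correction (-0.0034) and without BcorΔE9-10 library 2 (-0.076).

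Of 8 Runx3 targets, 4 were tested and 1 was called by limma and by edgeR, against 2 by DESeq2, and the count ran from 0 without BcorWT library 1 to 2. Bcl2l11 (Bim), a pro-apoptotic member of the Bcl2 family, had 114, 71 and 108 counts in BcorΔE9-10 against 36 and 38 in BcorWT, or 13.5, 11.6 and 12.6 CPM against 5.11 and 5.63 CPM. The groups were far apart relative to their spread (log2 fold change 1.22, SE 0.290, limma adjusted p = 0.0135), and the call was lost without BcorWT library 1. Itgal, the integrin chain of LFA-1, was at -0.38 (limma adjusted p = 0.0525), Itgax, an integrin of dendritic cells, at -1.02 (limma adjusted p = 0.224), and Zbtb7b, a factor of helper T cells, at 0.10 (limma adjusted p = 0.722). Itgal was called lower under DESeq2, DESeq2 size factors and GC correction with and without the replicate block, where adjusted p-values went down to 0.0156. Itgax was called lower without BcorWT library 2 (-1.71) and stood at -0.31 without BcorWT library 1, and the sign of Zbtb7b turned without BcorWT library 1.

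The cells of origin most often linked to Runx2 and Runx3 were checked by their markers. Of 9 osteoblast and stroma markers, 6 had 0 counts in all libraries, and the summed level of the list was 1.89 to 5.71 CPM in BcorΔE9-10 and 2.22 to 6.96 CPM in BcorWT. Of 11 plasmacytoid dendritic cell markers, 5 were tested and 0 were called by limma, edgeR or DESeq2 (1 at an unadjusted p under 0.05), with summed levels of 29.1 to 33.1 CPM against 28.7 to 36.8 CPM. The median log2 fold change of the 5 was -0.71, with Bst2 at -0.71, Irf7 at -0.997 and Cox6a2 at -0.82, and Tcf4 and Ly6d on the other side at 0.25 and 0.26. Siglech, the defining marker, was too low to be tested, with 6, 0 and 13 counts in BcorΔE9-10 against 2 and 0 in BcorWT.

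Of 13 T and natural killer cell markers, 7 were tested and 1 was called higher, beside 6.02% of all genes. It was Il2rb, a chain of the interleukin-2 and interleukin-15 receptors (1.22, limma adjusted p = 0.0265). At an unadjusted p under 0.05 there were 3. The median log2 fold change of the list was 0.81. Of the T cell genes on the list, Cd3e, Cd3g, Cd4 and Cd8a had at most 3 counts in any library. Trbc2 had 8, 5 and 15 counts in BcorΔE9-10 against 3 and 3 in BcorWT, and Cd3d had 9, 11 and 19 against 26 and 10 (-0.55, limma adjusted p = 0.595). The natural killer cell receptor Ncr1 had 23, 18 and 41 counts in BcorΔE9-10 against 7 and 10 in BcorWT, with no overlap in CPM (1.44, limma adjusted p = 0.143). Gzma (1.20, limma adjusted p = 0.293) and Cd7 (0.81, limma adjusted p = 0.234) were not called either. The summed level of the list was 157.5 to 199.7 CPM in BcorΔE9-10 and 198 to 206 CPM in BcorWT, most of it from Nkg7 (-0.32, limma adjusted p = 0.138). Leaving out Nkg7, which was decided once the data had been seen, gave sums of 29.1, 35.6 and 43.2 CPM in BcorΔE9-10. In BcorWT they were 23.6 and 14.2 CPM, so that every BcorΔE9-10 library lay above both controls. Taken singly, 22.6% of all genes tested did so. Il2rb had 119, 98 and 178 counts in BcorΔE9-10 against 77 and 31 in BcorWT, and its call was lost without BcorΔE9-10 library 2 or 3, without BcorWT library 2, where it stood at 0.62, and under GC correction with the replicate block. The part of these lymphoid transcripts in the Runx3 difference was not tested.

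The markers of the sorted cells were present in all libraries, beside abundant transcripts of maturing neutrophils. Of 8 KL progenitor markers all were tested, 4 had a positive and 4 a negative log2 fold change, and the median was 0.04. Those not called included Prtn3 (-0.17, limma adjusted p = 0.362) and Fcgr3 (-0.34, limma adjusted p = 0.102). The 1 that was called higher, beside 6.02% of all genes, was Kit, the receptor used in the sort. It had 53.4, 50.1 and 49.4 CPM in the BcorΔE9-10 libraries against 18.2 and 19.6 CPM in the BcorWT libraries (log2 fold change 1.43, SE 0.173, limma adjusted p = 9.82e-05). Of 11 maturing neutrophil markers, 7 were called lower, beside 4.09% of all genes, and 0 higher, with summed levels of 150042 to 173945 CPM in BcorΔE9-10 and 216813 to 229274 CPM in BcorWT. Camp alone had a positive log2 fold change (0.25, limma adjusted p = 0.114). For Mmp8 and Retnlg, neither of them called, BcorWT library 2 (276.6 and 259.7 CPM) lay below every BcorΔE9-10 library. Of 11 basophil, mast cell and eosinophil markers, 10 were tested and 7 were called lower, beside the same 4.09%, with summed levels of 569 to 841 CPM against 1314 to 1625 CPM. Of 5 genes taken for antigens gated out in the sort, 2 were tested, and they differed in sign. Ly6g was called lower (-0.97, limma adjusted p = 0.00204), with -0.55 without BcorWT library 1 and -1.37 without BcorWT library 2. Itgam (CD11b) had 119.6, 121.6 and 132.3 CPM in BcorΔE9-10 against 96.4 and 96.5 CPM in BcorWT, with no overlap (0.37, limma adjusted p = 0.0618), was called under total counts alone, stood at 0.036 after GC correction and turned when the replicate block was added to it. In every library the transcripts of Ly6g (207.6 to 569.7 CPM) and Itgam stood above that of Kit. Whether they came from progenitors or from maturing cells was not tested. The part of these shifts in the Runx2 and Runx3 differences was not tested.

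Patterns across the 5 libraries were compared with those of 3271 genes whose average log2 CPM was at least 5, as a description in which all points share the groups and the libraries. The 3 genes most like Runx2 by Pearson's r of log2 CPM were Rbm39 (0.998), Paip2 (0.996) and Sltm (0.996), and those most like Runx3 were Rps24 (0.998), Sltm (0.995) and Kit (0.994). For Runx1 they were Mxi1, Lta4h and Alas1 (0.995 each), and for Cbfb they were Apaf1 (0.995), Kif11 (0.995) and Fam168b (0.993). Among the members, Runx2 and Runx3 were the most alike (r = 0.994 over 5 libraries). Runx1 followed them less closely (0.842 with Runx2 and 0.873 with Runx3), and Cbfb was nearer to Runx1 (0.758) than to Runx2 (0.425) or Runx3 (0.438).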

How the data were processed

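Total RNA of sorted KL cells was made into QuantSeq 3′ libraries, which read the end of each polyadenylated transcript. Per the labels and the study's methods, the authors demultiplexed reads with bcl2fastq (2.17.1.14), trimmed them with cutadapt, aligned them to mm10 with HISAT2 and counted them per gene with Subread (1.5.0-p3). The deposited values are raw counts, not normalised. Options for strand and for reads with several alignments are not given in the sources used here. Symbols were found for 52403 of 52550 identifiers through GENCODE M21.

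Genes were filtered with filterByExpr of edgeR 4.0.16 (minimum count 10, minimum total 15), scaled by TMM and tested with limma 3.58.1 on voom values (two-sided, Benjamini-Hochberg over all genes tested, called under 0.05) in R 4.3.3. DESeq2 1.42.0 and edgeR's quasi-likelihood test were among 16 alternatives, which also covered scaling, filtering, sample quality weights, depth, a lowess trend on GC content (span 0.3), a replicate block and the removal of each library in turn. The procedures were tested on simulated counts. Within groups, the spread of counts between libraries exceeded that of sampling (chi-square 5.69 to 10.8 per gene, with 1 for sampling alone), and each was kept as a replicate. The members and the 18 gene lists were chosen with earlier results of these data known. Called genes of the pathway lists were named, with the 3 most abundant of those not called, and for each tested member the 3 genes of most similar pattern. Among markers, those named were chosen after their values were seen.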

Additional observations from a re-analysis of the deposited data

How the results depend on the processing

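The number of genes called was 558 to 1200 when 1 library was left out (774 without BcorΔE9-10 library 2, 723 without library 3 and 558 without BcorWT library 1), and stayed within 1.5 times 1189 under the other alternatives. Runx1 was called under none of the 16 alternatives, with log2 fold changes of 0.14 to 0.36 when 1 library was left out. Runx2 lost its call in 4 of 16, under GC correction (0.80), GC correction with the replicate block (0.84) and without either BcorWT library, with a range of 0.98 to 1.10 over the 5 fits without a library. Runx3 lost its call in 12 of 16, with values of 0.44 under sample quality weights, 0.42 under DESeq2 size factors, 0.44 with no expression filter, 0.42 at the depth of the smallest library, 0.45 under the replicate block, 0.42 under GC correction, 0.44 under GC correction with the block, and 0.41 to 0.44 without a library. Cbfb reversed under GC correction (-0.0014), under GC correction with the replicate block (-0.045) and without BcorWT library 1, the lowest of the 5 fits without a library (-0.038 to 0.41). The cause of these losses was not tested. Runx1t1 gave no value in any fit.

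Replicate numbers were shared between the groups. Over all genes tested, same-numbered libraries deviated together little (correlations 0.0583 and 0.0681 over 2 pairs). So few pairs cannot settle whether the number pairs the libraries. Under the replicate block the log2 fold changes were 1.08 for Runx2 (limma adjusted p = 0.0147), 0.45 for Runx3 (limma adjusted p = 0.0533), 0.26 for Runx1 and 0.14 for Cbfb. At the depth of the smallest library Runx2 kept its call (limma adjusted p = 0.0155) and Runx3 lost it (limma adjusted p = 0.0585).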

Other observations

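Other blood lineages in which Runx1 acts were described by their markers. Of 15 erythroid markers, 9 were tested, of which 8 had a positive log2 fold change and 1 was called higher (5 by edgeR, 2 by DESeq2). Their summed level was 129 to 329 CPM in the BcorΔE9-10 libraries and 73.0 to 120.0 CPM in the BcorWT libraries, so the sums did not overlap. Tfrc gave 62.9 CPM of the sum in BcorΔE9-10 library 1 and 48.9 CPM in BcorWT library 2. The globin genes overlapped, Hba-a1 with 14.4, 25.3 and 68.0 CPM in BcorΔE9-10 against 5.40 and 15.3 CPM in BcorWT. Of 10 megakaryocyte markers, 7 were tested and 0 were called by limma, edgeR or DESeq2 (1 at an unadjusted p under 0.05), with summed levels of 67.8 to 94.0 CPM against 46.4 to 81.4 CPM, which overlapped. Of 10 stem cell markers, 2 were tested and 0 were called by any of the 3 tools or at an unadjusted p under 0.05, while their summed level was 16.1 to 17.8 CPM against 11.4 to 12.3 CPM. Of 8 B cell markers, 5 were tested and 0 were called by limma, edgeR or DESeq2 (1 at an unadjusted p under 0.05), with summed levels of 10.6 to 20.9 CPM against 7.56 to 13.3 CPM, which overlapped.

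The antisense genes in the Runx2 locus were near the detection limit. Runx2os1 had between 9 and 22 counts in a library, Runx2os2 between 0 and 6, and Runx2os3 had 0 in all 5. The annotation lists 13 transcripts of Runx2 with 11 distinct 3′ ends, the most of any member, and the counts sum over them.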
